A study of Homo sapiens with 4 samples.

Results

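YAP1, TEAD1 and 8 further genes of the YAP and TEAD transcription programme were followed in U87, an established human glioma cell line. The genes were YAP1, TEAD1, CCN1 (also CYR61), CCN2 (also CTGF), ANKRD1, CRIM1, F3, AMOTL1, AMOTL2 and LATS2. They were represented by 23 of the 41920 non-control probe sets on the array, namely every probe set whose platform annotation names that gene alone, and by 10 of the 18304 genes with such a probe set. All 4 RNA samples came from U87 cells with a knockdown of QK, the gene QKI, whose product binds RNA and regulates splicing. In 2 samples the cells had also been transduced with miR-20a, and in the other 2 with miR-NT, a scrambled microRNA meant to have no target. No array of cells with intact QK was analysed here, and the labels do not say how the knockdown was made or whether the samples of a group were separate cultures, so the p-values reflect only how these 4 samples vary, which could be technical.

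YAP1 is a transcriptional coactivator without a DNA-binding domain of its own, and it reaches its target genes through TEAD factors such as TEAD1. In the Hippo pathway the kinases LATS1 and LATS2 phosphorylate YAP1 and keep it out of the nucleus, and the angiomotin proteins, among them AMOTL1 and AMOTL2, bind and retain it. LATS2 and AMOTL2 are themselves induced by YAP1 and TEAD, a negative feedback, alongside targets such as CCN1, CCN2 and ANKRD1. The activity of YAP1 depends largely on its phosphorylation and location, neither of which an mRNA array measures.

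The sequence of miR-20a is shown here for its seed, the stretch that pairs with target transcripts. LATS2 has been reported as a target of miR-93, miR-372 and miR-373, whose seeds are compared with that of miR-20a below. Whether the transcripts of LATS2 or of the other genes hold sites for this seed was not tested. Mature sequences are from RefSeq (GRCh38.p14), 5′ to 3′, with bases 2 to 8, the seed, in capitals.
miR-20a-5p: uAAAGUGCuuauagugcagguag
miR-17-5p: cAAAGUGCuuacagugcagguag
miR-93-5p: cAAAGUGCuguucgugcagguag
miR-372-3p: aAAGUGCUgcgacauuugagcgu
miR-373-3p: gAAGUGCUucgauuuuggggugu
The first 3 share the seed AAAGUGC, and the last 2 have the seed AAGUGCU, which shares a run of 6 bases with it. The array did not measure mature miR-20a.

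Promoter windows show where the letters of a TEAD site occur near the starts of these genes. RefSeq windows (GRCh38.p14) of 300 bases, from 250 before to 50 after a transcript start, were matched by symbol for 7 of the 10 genes. CCN1, TEAD1 and CRIM1 had no window. The TEAD core GGAATG was searched on both strands, as CATTCC on the other, and was found in a window of 5 of these 7 genes, namely YAP1, CCN2, ANKRD1, AMOTL2 and LATS2. It occurs in 14.03% of all 35116 such windows, a share per window and not per gene. AMOTL2 had 2 windows and the match lay in the second only, and the LATS2 match began after the start, at base 10. CCN2 and ANKRD1 are printed for having 3 and 2 matches, where 0.128% of all windows hold 3 or more and 1.37% hold 2 or more. AMOTL2 and F3 are printed as genes whose levels lay on opposite sides of the control, as described further on. A relation of motif and direction was not tested: AMOTL1, also below the control, had no GGAATG match in its only window, and CRIM1, also above it, had no window. The AMOTL1 window (chr11:94768106-94768405, plus strand) lies within the gene, which begins at 94706460, so the gene's first start was not searched. The window of F3 held no GGAATG but 1 AP-1 motif TGAGTCA, read as TGACTCA on the other strand, a motif found in 4.95% of all windows. Motif letters are in capitals, and the strand shown is that of the gene.
CCN2, chr6:131951323-131951622, minus strand: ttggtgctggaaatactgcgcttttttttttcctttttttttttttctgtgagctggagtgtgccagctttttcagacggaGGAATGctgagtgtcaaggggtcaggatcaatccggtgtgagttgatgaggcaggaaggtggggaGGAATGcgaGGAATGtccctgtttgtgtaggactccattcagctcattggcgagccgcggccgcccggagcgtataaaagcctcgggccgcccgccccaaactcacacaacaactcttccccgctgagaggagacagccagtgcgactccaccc
ANKRD1, chr10:90921038-90921337, minus strand: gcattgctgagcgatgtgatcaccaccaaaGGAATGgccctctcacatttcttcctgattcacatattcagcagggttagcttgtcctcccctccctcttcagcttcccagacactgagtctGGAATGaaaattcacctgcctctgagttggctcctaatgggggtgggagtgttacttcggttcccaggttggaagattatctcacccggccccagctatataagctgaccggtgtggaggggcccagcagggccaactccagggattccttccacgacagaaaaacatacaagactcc
AMOTL2, chr3:134374398-134374697, minus strand: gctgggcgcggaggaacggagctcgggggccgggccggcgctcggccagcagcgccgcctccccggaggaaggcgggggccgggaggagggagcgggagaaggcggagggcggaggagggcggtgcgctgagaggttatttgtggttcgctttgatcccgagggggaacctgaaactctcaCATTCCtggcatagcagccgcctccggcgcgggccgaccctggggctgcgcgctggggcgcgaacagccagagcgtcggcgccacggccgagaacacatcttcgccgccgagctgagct
F3, chr1:94541710-94542009, minus strand: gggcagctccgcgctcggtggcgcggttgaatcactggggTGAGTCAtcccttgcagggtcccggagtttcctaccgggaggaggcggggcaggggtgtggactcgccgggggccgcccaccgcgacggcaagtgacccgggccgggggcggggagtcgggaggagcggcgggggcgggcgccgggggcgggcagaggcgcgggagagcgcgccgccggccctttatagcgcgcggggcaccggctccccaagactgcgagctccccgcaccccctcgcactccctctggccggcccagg
In CCN2 the matches began 169, 104 and 95 bases before the start, in ANKRD1 220 and 128 bases before it, and in AMOTL2, at the second of its starts in the table, 69 bases before it. A match is a description of the letters and does not show that a factor binds there.

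The values are probe-set levels on a log2 scale, as deposited, without detection calls, so a low level cannot be told from background. The arrays correlated at r = 0.9946 within miR-20a, 0.9961 within miR-NT and 0.9907 to 0.9935 across groups. By the probe set of highest level per gene, QKI averaged 9.45 in miR-20a cells and 9.28 in miR-NT cells (limma adjusted p = 0.452), and with the knockdown in all samples this does not check the labels. Of the glioma and mesenchymal markers, VIM, CD44 and CHI3L1 lay above the 99th percentile of all probe sets, TNC at the 95.9th, NES at the 72.5th, GFAP at the 53rd, SOX2 at the 50.5th, OLIG2 at the 38.6th and S100B at the 13.7th. CHI3L1 209396_s_at moved with the groups, at 12.44 and 12.32 log2 units in miR-20a cells, against 13.49 and 13.51 in miR-NT cells (change -1.12, limma adjusted p = 0.0243), and the others of these markers did not pass. Of markers of other cell types, the epithelial EPCAM, CDH1 and KRT5 lay at the 10.3rd, 15.8th and 54.8th percentile, the endothelial CDH5, VWF and PECAM1 at the 11.9th, 48.7th and 82nd, and the blood markers PTPRC and CD3E at the 42.2nd and 67.8th, and none of these passed the test. The gap between the 3′ and 5′ control probe sets of ACTB, a sign of RNA quality, also moved with the groups, at 0.52 and 0.46 log2 units on the miR-20a arrays, against 0.20 and 0.35 on the miR-NT arrays. The same gap for GAPDH was 0.27 and 0.28 on the miR-20a arrays, against 0.22 and 0.22 on the miR-NT arrays. The part of CHI3L1 and of these gaps in the results that follow was not tested.

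None of the 23 probe sets passed the test between miR-20a and miR-NT cells (limma, Benjamini-Hochberg adjusted p under 0.05 over all 41920 probe sets), against 0.136% of all probe sets, of which 50 (0.119%) were higher and 7 (0.0167%) lower. Without adjustment 10 of 23 had a limma p under 0.05, 6 of them higher and 4 lower, against 17.9% of all probe sets (9.46% higher and 8.4% lower). Those 10 belonged to 7 genes, where 5380 of all 18304 genes had such a probe set. Probe sets of 1 gene share their transcript, so they are not separate observations. With the lower 40% of probe sets by level left out, 9 of the 19 remaining had a limma p under 0.05, against 6573 of 25152 over all. The groups did not overlap for 13 of the 23, with 6 higher and 7 lower, against 48.9% of all probe sets (21.7% higher and 27.2% lower). The median log2 change (miR-20a minus miR-NT) was -0.04 over the 23 probe sets, with a range of -0.33 to 0.69. Over all probe sets it was -0.02, with a range of -1.18 to 2.05. The genes lay on both sides of the control, with CRIM1 and F3 above it and AMOTL1 and AMOTL2 below it. Over all probe sets the change correlated with the mean level at a Spearman r of 0.221. Levels had an SD of 1.90 and 1.89 on the miR-20a arrays, against 1.84 and 1.85 on the miR-NT arrays. After quantile normalization the changes were 0.53 for CRIM1 202551_s_at, 0.70 for CRIM1 202552_s_at, 0.35 for YAP1 224894_at and 0.22 for CCN1 201289_at. AMOTL2 was then at -0.42. The part of this spread in the changes was not tested.

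**Figure D1:**
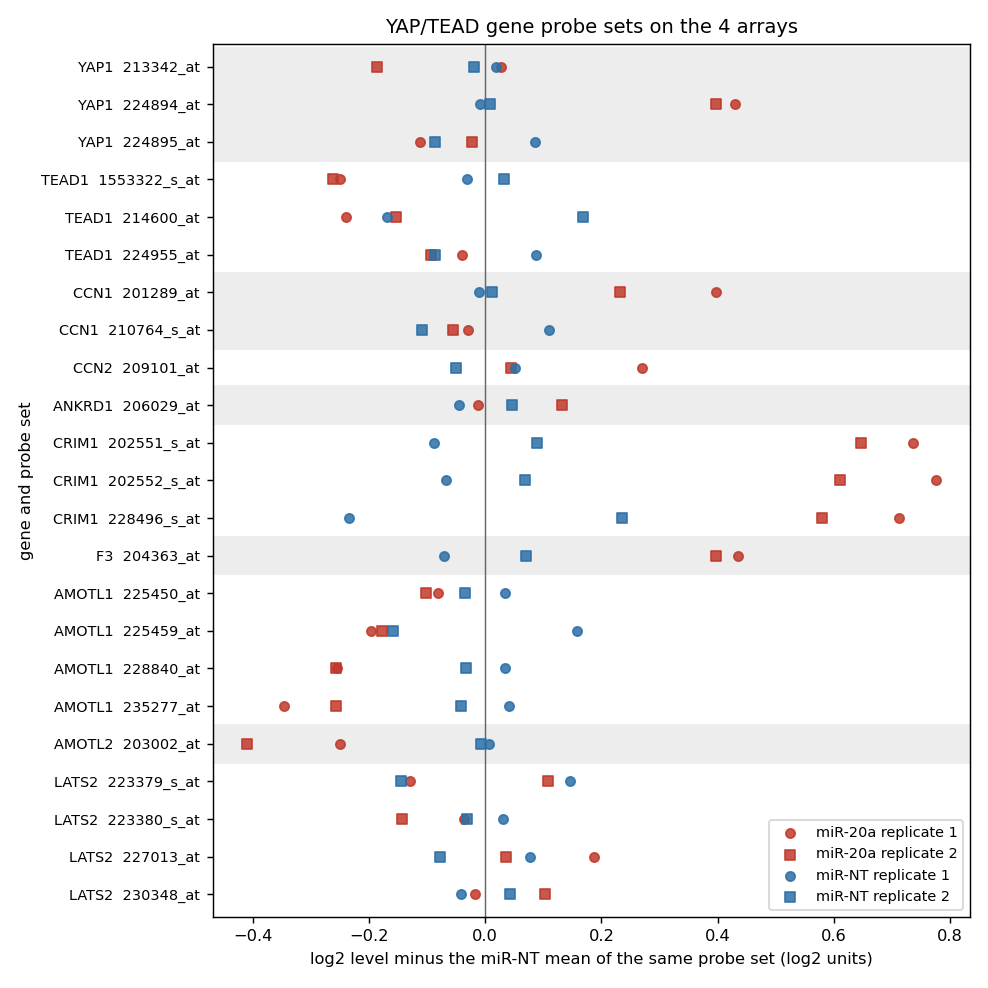
Log2 level of each of the 23 probe sets on each array (x axis), less the miR-NT mean of the same probe set. Red points are the 2 miR-20a arrays and blue points the 2 miR-NT arrays, and the red points lie to the right of both blue points for CRIM1 and F3 and to the left for AMOTL1 and AMOTL2.

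CRIM1, a membrane-anchored protein that binds bone morphogenetic proteins and is counted among YAP targets, had the highest changes of the 10 genes. Its probe set 202551_s_at was at 11.17 and 11.08 log2 units on the miR-20a arrays and at 10.34 and 10.52 on the miR-NT arrays. For 202552_s_at the levels were 8.34 and 8.17 in miR-20a cells, against 7.49 and 7.63 in miR-NT cells. For 228496_s_at they were 10.89 and 10.76 in miR-20a cells, against 9.94 and 10.41 in miR-NT cells. Both miR-20a arrays lay above both miR-NT arrays in all 3 probe sets, as they did in 21.7% of all probe sets. The third was the most spread because of the gap between its miR-NT arrays. The log2 changes were 0.69 ± 0.10, 0.69 ± 0.10 and 0.65 ± 0.16 (SE), or 1.62-fold, 1.62-fold and 1.56-fold, with limma adjusted p-values of 0.0985, 0.0998 and 0.15. Without miR-NT replicate 1 the change of 228496_s_at was 0.41, and without miR-NT replicate 2 it was 0.88. Changes of at least the size of the first were seen in 0.37% of all probe sets and changes of at least the size of the third in 0.494%.

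The call on CRIM1 depended on the setting. With a prior spread that follows the mean level and a robust fit, 202551_s_at and 202552_s_at had adjusted p-values of 0.0139 and 0.0272 (limma), in a setting that called 1.87% of all probe sets as higher. With the lower 40% of probe sets by level left out they had 0.0362 and 0.0382 (limma, 1.07% of 25152 probe sets called as higher). With the probe sets of each gene averaged, the change of CRIM1 was 0.68 ± 0.11 (SE, limma adjusted p = 0.048, 0.683% of 18304 genes called as higher). After quantile normalization with the trend and robust fit, 202551_s_at and 202552_s_at had 0.0188 and 0.0165 (limma, 1.03% called as higher), and after quantile normalization with the filter 0.0437 and 0.0223 (limma, 1.23% called as higher). In the other settings 202551_s_at and 202552_s_at did not pass. Their limma adjusted p-values were 0.114 and 0.0677 after quantile normalization alone, 0.0793 and 0.0827 after median centring, 0.109 and 0.0765 after cyclic loess, and 0.358 for both with the replicate block. With 1 array left out they ran from 0.0842 to 0.638, and by the probe set of highest mean per gene CRIM1 had 0.0531. The third probe set, 228496_s_at, passed in none of the settings run.

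F3 encodes tissue factor, the membrane protein that starts blood coagulation. It was measured at 8.44 and 8.40 log2 units in miR-20a cells and at 7.94 and 8.08 in miR-NT cells. The groups did not overlap, and the change of 0.42 ± 0.09 (SE), 1.33-fold, did not pass (limma adjusted p = 0.141). It had a positive sign in all 14 other settings, between 0.35 and 0.49, and passed in none of them.

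The secreted matrix-associated proteins CCN1 and CCN2 are the targets most used as readouts of YAP and TEAD. For CCN1, probe set 201289_at was at 9.69 and 9.52 log2 units in miR-20a cells, against 9.28 and 9.30 in miR-NT cells, without overlap, a change of 0.31 ± 0.10 (SE, limma adjusted p = 0.194). The other probe set of CCN1, 210764_s_at, was at 9.12 and 9.09 in miR-20a cells, against 9.26 and 9.04 in miR-NT cells, where the groups overlapped and the change was -0.04 ± 0.11 (SE, adjusted p = 0.88, limma). The gene's probe sets thus gave unequal changes: on each array 201289_at less 210764_s_at was 0.57 and 0.43 in miR-20a cells, against 0.02 and 0.27 in miR-NT cells. CCN2, whose promoter window holds 3 TEAD motifs, was at 9.98 and 9.76 in miR-20a cells and at 9.76 and 9.66 in miR-NT cells, so that its groups overlapped. Its change was 0.16 ± 0.11 (SE, limma adjusted p = 0.5), with a 95% interval of -0.11 to 0.42. It was smaller after quantile normalization and cyclic loess, at 0.051 in both, and leaving out the first miR-20a array gave 0.044 and leaving out the second 0.27.

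ANKRD1, a nuclear and sarcomeric ankyrin-repeat protein, was near the bottom of the scale, at the 8.3rd percentile of mean level. It was measured at 4.45 and 4.60 log2 units in miR-20a cells, against 4.42 and 4.51 in miR-NT cells. The groups overlapped, and the change was 0.06 with a 95% interval of -0.17 to 0.29 (limma adjusted p = 0.804).

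**Figure D2:**
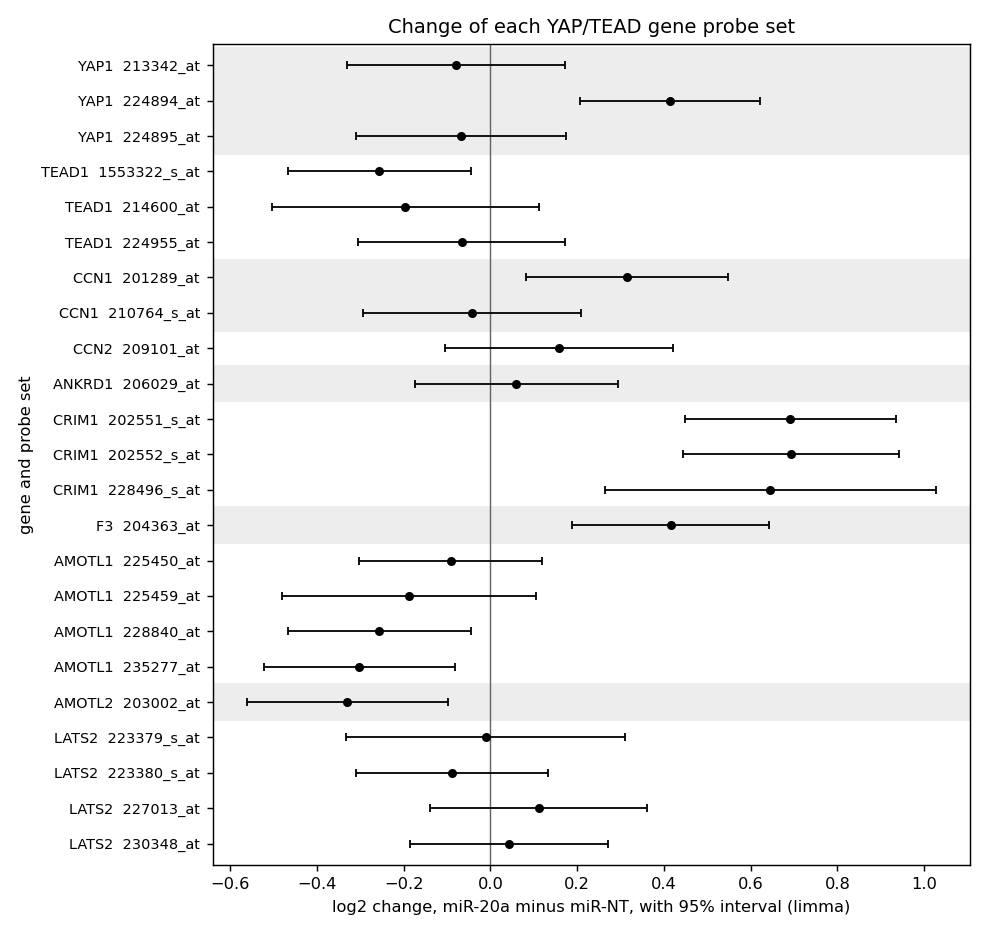
Log2 change of each probe set, miR-20a minus miR-NT (x axis), with points for limma estimates and bars for 95% intervals. The interval lies above 0 for the 3 probe sets of CRIM1, F3, 1 of 3 of YAP1 and 1 of 2 of CCN1. It lies below 0 for TEAD1 1553322_s_at, AMOTL1 228840_at and 235277_at, and AMOTL2 203002_at. The intervals of LATS2 all include 0.

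YAP1 itself gave unequal results by probe set. Probe set 224894_at was at 9.002 and 8.968 log2 units in miR-20a cells, against 8.56 and 8.58 in miR-NT cells, a change of 0.41 ± 0.09 (SE, limma adjusted p = 0.138) without overlap. Probe set 224895_at was at 10.08 and 10.17 in miR-20a cells, against 10.28 and 10.11 in miR-NT cells, and 213342_at at 7.68 and 7.47, against 7.67 and 7.64. These overlapped between the groups, with changes of -0.07 ± 0.10 and -0.08 ± 0.10 (SE). On each array 224894_at less 224895_at was -1.08 and -1.20 in miR-20a cells, against -1.72 and -1.53 in miR-NT cells. With 2 arrays against 2, no exact permutation p can be below 0.333. Only 224894_at passed in another setting, the trend and robust fit (limma adjusted p = 0.0414).

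TEAD1, the DNA-binding partner, had 3 probe sets with negative changes. The one without overlap, 1553322_s_at, was at 6.42 and 6.41 log2 units in miR-20a cells, against 6.64 and 6.71 in miR-NT cells (change -0.26 ± 0.09, SE, limma adjusted p = 0.216). The other changes were -0.20 ± 0.13 and -0.07 ± 0.10 (SE), and in both the groups overlapped. The first of these, 214600_at, was at -0.37 without miR-NT replicate 1 and at -0.027 without miR-NT replicate 2, and the other, 224955_at, was at -0.16 after quantile normalization and at 0.0205 without miR-NT replicate 1.

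The angiomotin-family inhibitors AMOTL1 and AMOTL2 lay below the control in every probe set. AMOT, counted below among the other Hippo pathway genes, had overlapping groups and a change of -0.04 (limma adjusted p = 0.917). For AMOTL1, each of the 4 probe sets was lower on either miR-20a array than on any miR-NT array. Of all probe sets 27.2% were lower in this way, and probe sets of 1 gene share their transcript. Changes at or below those of AMOTL1 were seen in 33.2%, 15.5%, 7.61% and 4.33% of all probe sets. The AMOTL1 changes, in the same order, were -0.09, -0.19, -0.26 and -0.30. The last, 235277_at, was at 6.04 and 6.13 log2 units in miR-20a cells and at 6.42 and 6.34 in miR-NT cells (limma adjusted p = 0.19), and 228840_at was at 7.54 on both miR-20a arrays, against 7.83 and 7.76 on the miR-NT arrays (adjusted p = 0.217, limma). In 225459_at the gap was small, 6.37 and 6.39 in miR-20a cells, against 6.72 and 6.41 in miR-NT cells, and the change was -0.029 without miR-NT replicate 1 and -0.35 without miR-NT replicate 2. AMOTL2 was at 9.32 and 9.16 in miR-20a cells and at 9.58 and 9.57 in miR-NT cells. Its change of -0.33 ± 0.10 (SE), 1.26-fold lower, did not pass (limma adjusted p = 0.182). It passed in 1 of 14 other settings, 1 of those added after seeing the data. This was quantile normalization with a trend and robust fit (change -0.42, limma adjusted p = 0.0365, 0.878% of all probe sets called as lower). With the trend and robust fit alone the limma adjusted p was 0.0837, and after quantile normalization alone it was 0.145.

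LATS2, the kinase and reported target of microRNAs with the seed of miR-20a or a related one, had 4 probe sets that went both ways. The changes were -0.01 ± 0.13, -0.09 ± 0.09, 0.11 ± 0.10 and 0.04 ± 0.10 (SE), with limma adjusted p-values between 0.627 and 0.982. The most negative one, 223380_s_at, was at 8.51 and 8.41 log2 units in miR-20a cells, against 8.58 and 8.52 in miR-NT cells, the only one of the 4 without overlap, and its 95% interval ran from -0.31 to 0.13. A lower LATS2 transcript level was thus not detected, and a fall of up to 0.31 by this probe set is within the interval. For 223379_s_at the 95% interval was wider, from -0.33 to 0.31.

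Of a wider list of 22 genes described as YAP and TEAD targets, 20 were measured, by 63 probe sets. Past the threshold 5 probe sets of 2 genes rose and 0 fell (limma), where 0.119% of all probe sets were called as higher and 0.0167% as lower. At an unadjusted p under 0.05 there were 19 higher and 7 lower, 41.3% of the 63, against 17.9% of all probe sets, and the median change was 0.03. By gene, 10 of the 20 had such a probe set, against 5380 of all 18304 genes. With the lower 40% by level left out, 24 probe sets of the list had a limma p under 0.05, against 6573 of 25152 over all. Probe sets of 1 gene share their transcript here too, and the list was chosen with earlier results of these data known. The 2 genes that rose past the threshold were THBS1, thrombospondin-1, and IGFBP3, an insulin-like growth factor binding protein. Both are also known to respond to TGF-beta. IGFBP3 was at 12.82 and 12.79 log2 units in miR-20a cells, against 11.89 and 11.84 in miR-NT cells, by 210095_s_at, a rise of 0.94 ± 0.09 (SE, limma adjusted p = 0.0283), and its second probe set rose by 0.84 (limma adjusted p = 0.0383). THBS1 had positive changes in all 7 probe sets, of which 3 passed. By 201109_s_at it was at 11.05 and 11.01 log2 units in miR-20a cells, against 9.37 and 9.41 in miR-NT cells, a rise of 1.64 ± 0.09 (SE, limma adjusted p = 0.0234). Besides these, the smallest p-values were those of CCDC80, a matrix protein (0.60, limma adjusted p = 0.118), DOCK5, an exchange factor for Rac (0.55, adjusted p = 0.126), AJUBA, a LIM protein that inhibits LATS kinases (0.54, adjusted p = 0.138), and NT5E, the cell-surface ecto-5′-nucleotidase CD73. NT5E went the other way, with a change of -0.41 in 203939_at (limma adjusted p = 0.14) and negative changes in all 4 of its probe sets. The values given for the other 3 genes are those of the probe set with the smallest p. DOCK5 also had negative changes in 1561276_at (-0.33, without overlap) and 215361_at (-0.14), AJUBA in 225807_at (-0.15) and CCDC80 in 243864_at (-0.0097). With a miR-NT array left out 0 of all probe sets passed (limma), and THBS1 201109_s_at then had adjusted p-values of 0.328 without replicate 1 and 0.302 without replicate 2, and IGFBP3 210095_s_at of 0.4 and 0.304. Their changes were then 1.62 and 1.67 for THBS1 and 0.96 and 0.91 for IGFBP3. IGFBP3 210095_s_at also missed the threshold without miR-20a replicate 1 (limma adjusted p = 0.0716). The other named genes passed in some settings only. CCDC80 225241_at passed with the lower 40% left out (limma adjusted p = 0.0467), with the trend and robust fit (0.0277), and after quantile normalization with that fit (0.0267) or the filter (0.044). DOCK5 230263_s_at passed with the trend and robust fit, without and with quantile normalization (limma adjusted p = 0.0288 and 0.0404), and AJUBA 1553764_a_at after quantile normalization with the filter (0.0482). NT5E 203939_at was called as lower with the trend and robust fit (limma adjusted p = 0.0385) and after quantile normalization with that fit (0.0104) or the filter (0.0352).

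Among 26 other Hippo pathway genes with 79 probe sets, 0 passed the threshold (limma), and at an unadjusted p under 0.05 there were 2 higher and 8 lower, 12.7%, against 17.9% of all probe sets. The median change was -0.02. VGLL3, a TEAD cofactor, was at 9.42 and 9.14 log2 units in miR-20a cells, against 8.63 and 8.65 in miR-NT cells, by 227399_at (change 0.64 ± 0.12, SE, limma adjusted p = 0.124), while its other probe set had a change of 0.18 with overlap. WWTR1, which encodes TAZ, the paralog of YAP1, had changes of -0.35, -0.06 and -0.29 in its 3 probe sets, the first with a limma adjusted p of 0.158. VGLL4, a cofactor that competes with YAP1 for TEAD, had changes of 0.37 and 0.18, and LATS1, the paralog of LATS2, had a change of -0.34 in 219813_at at a low level, against 0.01 and -0.06 in its other probe sets. VGLL3 227399_at passed with the trend and robust fit (limma adjusted p = 0.0322) and after quantile normalization with that fit (0.0267) or with the filter (0.0437), and no other gene of this list passed in any setting run.

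**Figure D3:**
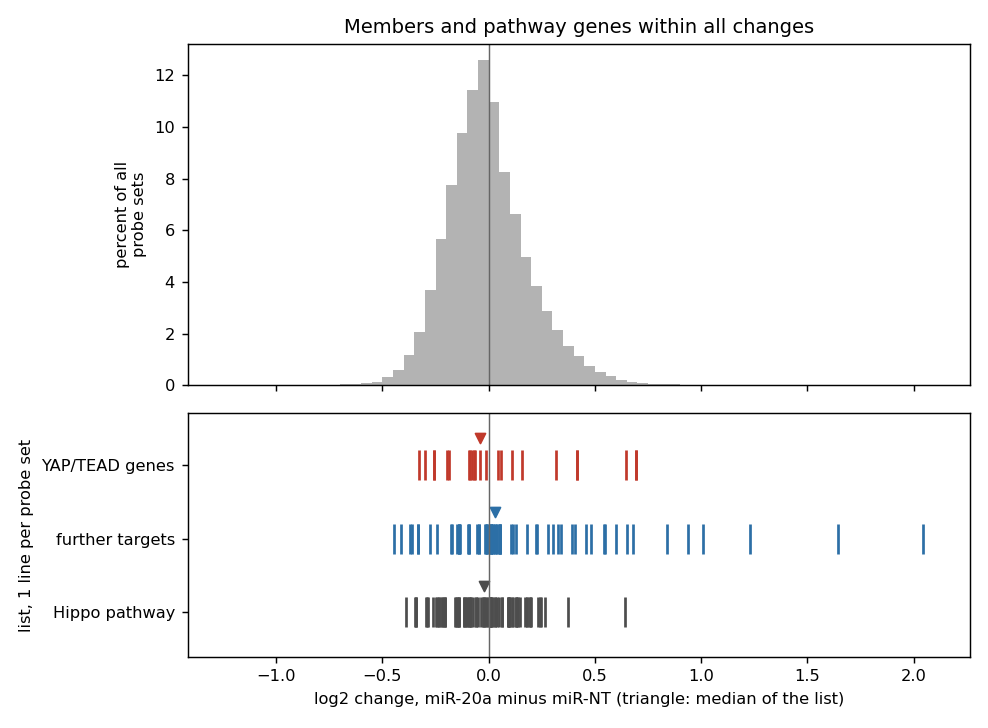
Upper panel, percent of all 41920 probe sets by log2 change, miR-20a minus miR-NT, in bins of 0.05. Lower panel, each probe set of the 10 genes, the further targets and the Hippo pathway genes as a line with the list's median as a triangle; the medians are -0.04, 0.03 and -0.02, and the lines right of 0.8 are IGFBP3 and THBS1.

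**Figure D4:**
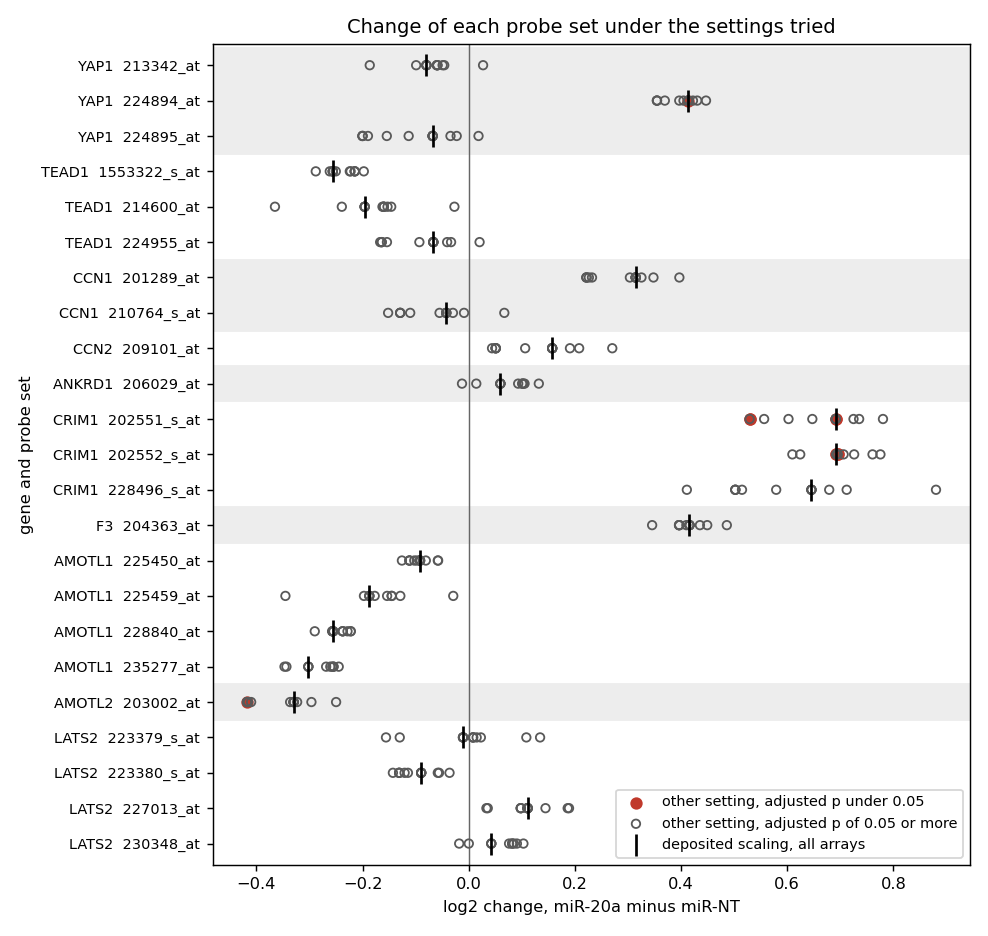
Log2 change of each of the 23 probe sets, miR-20a minus miR-NT (x axis), as a black bar with the deposited scaling and all arrays and as circles under the other settings, filled where the adjusted p was under 0.05. CRIM1 and F3 stayed above 0 and AMOTL1 and AMOTL2 below 0 in every setting run, and filled circles occur for CRIM1, AMOTL2 and YAP1 probe set 224894_at.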

How the data were processed

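RNA of 4 samples of QK-knockdown U87 cells, 2 with miR-20a and 2 with miR-NT, was read on 1 single-colour Affymetrix array each. The authors deposited 1 log2 level per probe set and array. Per the submitters' processing notes the authors used the R package affy (no version named); how background was corrected and how levels were normalized and summarized is not given in the sources used here. From the range of the values, the base of the logarithm was taken to be 2. Gene names came from GEO's annotation of the platform, with 37465 of 41920 naming a single gene, 1727 several and 2728 none, and the 10 control probe sets were left out of the fits. The precision is limited by the number of arrays, 2 per group.

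The deposited scaling was kept, with no filter. A linear model with a term for group was fitted to all probe sets with lmFit and eBayes of limma 3.58.1 (R 4.3.3), and p-values were adjusted by the Benjamini-Hochberg method over the whole table at a threshold of 0.05. Errors are standard errors of the fit, and intervals are 95% intervals. The fit was run on simulated data with independent normal noise, as a check of the code. How often changes of the size seen in the 10 genes would be called is not given here. The genes and lists were chosen with earlier results of these data known. Named genes were the 10 genes with every probe set and, of each wider list, the genes past the threshold and the 4 others with the smallest p. The alternatives were quantile normalization, median centring, the replicate number as a block, a filter on low levels (the lower 40% left out), a mean-variance trend with a robust fit, 1 value per gene (the probe set of highest mean, or the mean) and the removal of single arrays. Added after seeing the data were cyclic loess normalization, a crossed pairing, and quantile normalization joined with the filter or the trend.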

Additional observations from a re-analysis of the deposited data

How the results depend on the processing

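The number of calls over all probe sets depended on the settings, while the signs of CRIM1, F3, AMOTL1, AMOTL2, CCN2, 201289_at of CCN1 and 224894_at of YAP1 were the same in every setting run. With the deposited scaling 50 probe sets were higher and 7 lower. Leaving out 1 array gave between 0 and 59 higher and between 0 and 7 lower, with 0 among the 23 probe sets, and for the wider target list between 0 and 4 higher against 5 with all arrays. Of all probe sets, 0 passed without either miR-NT array, and 13 were higher and 3 lower without miR-20a replicate 1. In these fits the lone array of a group is assumed to vary like the other group. Quantile normalization gave 53 higher and 13 lower. With the lower 40% left out, 269 were higher and 65 lower, with 2 higher of the 19 remaining probe sets of the 10 genes (both CRIM1) and 8 higher in the wider target list. With the trend and robust fit, 783 were higher and 174 lower, with 3 higher of the 23, 11 higher and 2 lower in the target list, and 1 higher in the Hippo list. By the probe set of highest mean per gene, 67 genes were higher and 11 lower, and 2 of the target list were higher. By the mean of a gene's probe sets, 125 were higher and 28 lower, with 1 of the 10 genes and 2 of the target list higher. Quantile normalization with the trend gave 432 higher and 368 lower, with 2 higher and 1 lower of the 23, 9 higher and 5 lower in the target list and 1 higher in the Hippo list. Quantile normalization with the filter gave 309 higher and 208 lower, with 2 higher of the 10 genes' probe sets, 9 higher and 4 lower in the target list and 1 higher in the Hippo list.

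The numbers 1 and 2 do not show paired samples: the deviations of same-numbered arrays from their group means correlated at r = -0.121. The replicate block gave 0 higher and 0 lower over all probe sets and 0 in the target list, and the crossed pairing as a block likewise gave 0, 0 and 0, with 1 residual degree of freedom left in each.

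Signs changed only for probe sets with changes close to 0. LATS2 223379_s_at, at -0.01, was at 0.0082 after quantile normalization, alone, with the trend or with the filter, at 0.0229 after median centring and at 0.015 after cyclic loess, and leave-one-out values ran from -0.16 to 0.13. Without 1 array, ANKRD1 206029_at ran from -0.0126 to 0.13, CCN1 210764_s_at from -0.15 to 0.0671, YAP1 213342_at from -0.19 to 0.0271, YAP1 224895_at from -0.15 to 0.0185, TEAD1 224955_at from -0.15 to 0.0205 and LATS2 230348_at from -0.0179 to 0.10. With 2 arrays per group and no detection calls, changes of low probe sets such as that of ANKRD1 are the least certain.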
